A study of Mus musculus with 8 samples.

Results

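A group of 39 genes that act in S phase, DNA replication and recombination was followed in immortalized mouse pancreatic stellate cells (PSCs), the fibroblast-like support cells of the pancreas. The genes were listed by symbol for their known roles, and all 39 were among the 12160 genes of the count table. By role, 14 act in origin licensing and firing, 12 are the sliding clamp, its loaders, polymerases and their partners, 5 supply nucleotides, 3 regulate entry into S phase, 3 serve chromatin and histone supply and 2 act in recombination. RNA was measured in 8 samples of 3 groups, each from 20000 cells by the labels (the study's methods give another number) of the same PSC line embedded in growth factor reduced Matrigel, kept for 4 days in DMEM with 10% serum and then for 4 days in a test medium. In the shControl-CM group (n = 3) the test medium had been conditioned by KPC organoids carrying a non-targeting shRNA, and in the shBrca2-CM group (n = 3) by KPC organoids carrying an shRNA against Brca2. KPC organoids are 3D cultures of pancreatic tumour cells from mice, so the knockdown was in the tumour cells and the Brca2 level of the PSCs checks no label. The third group (n = 2) is called control medium: its treatment label names medium that the PSCs had conditioned themselves, while its sample titles name DMEM. Organoid medium was collected in DMEM with less serum than the growth medium, so against plain growth medium the serum and the organoids' secretions cannot be told apart.

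Before S phase, the origin recognition complex, CDC6 and CDT1 load the MCM helicase onto DNA, and CDC45 and the GINS complex then activate it. At the moving fork, primase and polymerase alpha lay down primers, replication factor C loads the PCNA clamp, polymerases delta and epsilon extend the strands, and FEN1 and LIG1 join the lagging strand. Many of these genes are transcriptional targets of E2F factors, which the RB protein restrains until cyclin E and its kinase act, and transcripts of the group are therefore common markers of cycling fibroblasts.

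Libraries were made from the 3′ ends of mRNA by MARS-seq, and expression is given as CPM, counts scaled to a common library size over all 8 libraries by the TMM method, which corrects for genes that take a large share of a library. Control medium libraries held 4623846 and 5476988 counts, shControl-CM libraries 1093609 to 1624392 and shBrca2-CM libraries 655996 to 1095534, so weakly expressed genes were measured least well with conditioned medium. The floor of detection was set at 3 counts, which before TMM scaling ranges from 0.548 CPM at the highest depth to 4.57 CPM at the lowest. The 3 shControl-CM libraries differed from each other more than the 3 shBrca2-CM libraries did, with rank correlations over genes of 0.941 to 0.967 against 0.962 to 0.968. Of 12 fibroblast markers all were measured, and their summed level was 6845 to 7761 CPM in control medium, 5181 to 5752 CPM with shControl-CM and 4976 to 5215 CPM with shBrca2-CM. The sum covers opposite changes, 4 of the 12 being called higher and 4 lower with shControl-CM: Vim was at 3396 and 4115 CPM in control medium and 243 to 749 CPM with conditioned medium, and Dcn at 80.0 and 104.8 CPM and 909.7 to 2257 CPM. Of 10 epithelial markers, Krt18, Krt19 and Muc1 were measured and summed to 37.0 to 41.7, 57.7 to 70.6 and 59.3 to 94.1 CPM, with Krt18 and Muc1 called higher and Krt19 lower with both conditioned media. Krt19 stood at 24.3 and 25.4 CPM in control medium, 2.04 to 3.87 CPM with shControl-CM and 5.79 to 16.2 CPM with shBrca2-CM. Of 6 leukocyte markers 3 were measured and summed to 9.46 to 11.5, 23.7 to 36.0 and 13.0 to 26.6 CPM in the same order. Of these 3, 2 were called higher with shControl-CM and 1 with shBrca2-CM, where 18.2% and 18.6% of all genes were. Of 5 endothelial markers 3 were measured, summing to 6.78 CPM or less. The other markers of these lists, among them Epcam and Ptprc, have no row in the count table. The part of such cells in the results below was not tested. In such bulk samples, fewer cells in S phase and less of a transcript per cell cannot be told apart. Groups were tested in pairs across the whole table by the quasi-likelihood method of edgeR. To be called, a gene needed a mean normalized count over 5, a Benjamini-Hochberg adjusted p under 0.1 and a log2 fold change beyond 0.5 in either direction. By the study's own account the samples of a group were separate Matrigel domes, all of the same PSC line, so p-values measure the spread between domes. All p-values below are edgeR's adjusted values unless named otherwise, and errors of log2 fold changes are standard errors (SE).

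Promoters are shown for genes that moved with both conditioned media, since E2F sites are the shared feature this gene group is best known for. Sequences are from RefSeq on GRCm38.p6, the build of the submitters' mm10, and run from 250 bases before to 50 bases after the start site on the strand of the gene, with capitals marking E2F motifs (TTNNCGC on either strand, where each N was limited to C or G) and CCAAT boxes on either strand. Shown are Chaf1a, whose product is the large subunit of the histone chaperone CAF-1 (chr17:56040166-56040465, plus strand), Rrm1 and Rrm2, the large and small subunits of ribonucleotide reductase (chr7:102441445-102441744 and chr12:24708004-24708303, plus strand), and Pold1, the catalytic subunit of polymerase delta (chr7:44548766-44549065, minus strand).
Chaf1a: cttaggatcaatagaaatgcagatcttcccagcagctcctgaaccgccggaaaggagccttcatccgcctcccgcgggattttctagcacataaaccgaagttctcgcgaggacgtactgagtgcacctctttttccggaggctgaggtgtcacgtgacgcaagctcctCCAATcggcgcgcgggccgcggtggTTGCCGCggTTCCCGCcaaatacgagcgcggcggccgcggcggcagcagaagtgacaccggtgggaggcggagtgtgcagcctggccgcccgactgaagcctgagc
Rrm1: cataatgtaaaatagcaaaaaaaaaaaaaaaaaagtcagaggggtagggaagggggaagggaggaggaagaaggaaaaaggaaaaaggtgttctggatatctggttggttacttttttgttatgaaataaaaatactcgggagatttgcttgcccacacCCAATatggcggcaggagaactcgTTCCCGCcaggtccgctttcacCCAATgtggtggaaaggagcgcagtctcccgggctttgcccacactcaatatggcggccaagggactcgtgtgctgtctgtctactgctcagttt
Rrm2: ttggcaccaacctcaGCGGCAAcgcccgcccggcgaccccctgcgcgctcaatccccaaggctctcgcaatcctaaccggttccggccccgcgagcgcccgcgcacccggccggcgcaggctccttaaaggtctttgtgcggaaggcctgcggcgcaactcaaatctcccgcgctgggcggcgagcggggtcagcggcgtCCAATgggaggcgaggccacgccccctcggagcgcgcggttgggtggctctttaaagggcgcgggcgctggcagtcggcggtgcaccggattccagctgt
Pold1: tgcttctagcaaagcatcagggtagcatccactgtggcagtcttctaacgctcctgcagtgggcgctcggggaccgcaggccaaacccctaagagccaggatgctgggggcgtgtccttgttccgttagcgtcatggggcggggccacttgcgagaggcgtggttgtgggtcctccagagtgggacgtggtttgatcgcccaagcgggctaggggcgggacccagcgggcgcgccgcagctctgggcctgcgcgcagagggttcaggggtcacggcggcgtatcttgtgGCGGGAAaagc

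Chaf1a and Pold1 rose with both conditioned media and Rrm1 and Rrm2 fell with both, and each of these 4 windows held at least 1 E2F motif. In Chaf1a the 2 E2F motifs start 56 and 47 bases upstream of the start site, in Rrm1 the motif starts 67 bases upstream between 2 CCAAT boxes, in Rrm2 it starts 235 bases upstream, and in Pold1 it lies 39 bases downstream of the start. Over the group, 21 of 33 genes with a RefSeq promoter held an E2F motif (63.6%), against 19.5% of the 9638 genes of the count table with one. CCAAT boxes were in 20 of 33 (60.6%), against 43.2%. By direction of change, the E2F motif was in 5 of 6 genes called higher with both conditioned media, in 3 of 3 called lower with both and in 8 of 16 called with neither. Where windows were limited to those at the outermost start of their gene, 13 of 23 (56.5%) held an E2F motif, against 17.2% of 5222. E2f1 ranks among the largest changes with both media, but the start site of its window lies 466 bases inside the outermost start of the gene and the window held neither motif, and it is not shown because of the limit on windows, which was added after they were seen. In some promoters, such as that of Mcm6, E2F motifs overlap each other, and a match of letters is a description only.

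With shControl-CM, more of the 39 genes rose than fell relative to control medium. Of the 39, 18 were called, 14 higher and 4 lower, where 37.1% of all 12086 genes tested were called, 18.2% higher and 18.9% lower. Their median log2 fold change was 0.26, against -0.096 over all genes. With shBrca2-CM, 14 were called against control medium, 9 higher and 5 lower, where 37.8% of 12049 genes were called, 18.6% higher and 19.2% lower. Here the median was 0.17, against -0.054 over all genes. Every shControl-CM library was above both controls for 18 of the 39 and below for 8, where 26.8% and 33.1% of all genes were (59.9% together). Every shBrca2-CM library was above for 17 and below for 11, where 26.1% and 31.3% of all genes were (57.4% together). Both comparisons use the same 2 control libraries, so they are not independent of each other. Called with both media were 12 genes, 8 higher (E2f1, Chaf1a, Rfc2, Rfc3, Pold1, Pole, Prim1 and Lig1) and 4 lower (Rrm1, Rrm2, Pola1 and Mcm4). With shControl-CM only, 6 were called (Ccne1, Rpa2, Mcm2, Mcm3, Mcm10 and Cdt1, all higher), and with shBrca2-CM only, 2 (Brca1 higher and Fen1 lower). Neither comparison called 19 of the 39, and no gene was called in opposite directions. Summed over the group, expression was 5025 and 5279 CPM in control medium, 6394 to 6709 CPM with shControl-CM and 5520 to 5963 CPM with shBrca2-CM, and the ranges of the 3 groups did not overlap. As a share of total counts the conditioned media did overlap, at 0.608 to 0.627% with shControl-CM and 0.582 to 0.613% with shBrca2-CM. When libraries were scaled by total counts, the shControl-CM calls became 9 higher and 5 lower (23.1% and 12.8%). Of all genes 14.9% were then called higher and 22.1% lower. In shares, 35.9% of the 39 were called higher with shControl-CM and 23.1% with shBrca2-CM, the latter near the 18.6% of all genes. Without the first control library, 7 of the 39 were called with shControl-CM, where 16.4% of all genes were, and 15.4% of the 39 were called higher with shBrca2-CM, where 18.4% of all genes were.

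**Figure D1:**
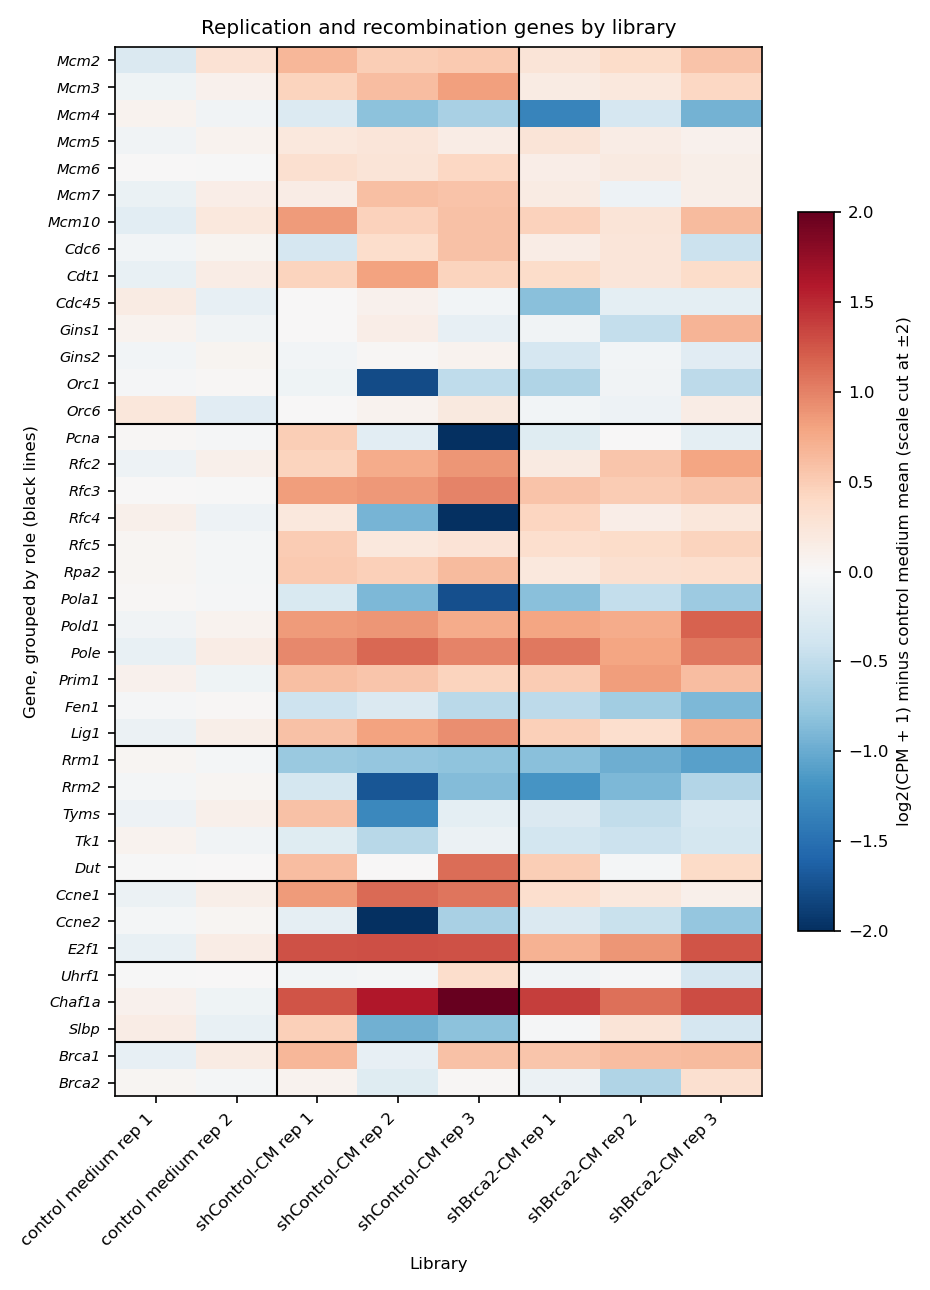
Expression of the 39 genes (rows, grouped by role between black lines) in each of the 8 libraries (columns), as log2(CPM + 1) minus the mean of the 2 control medium libraries, with red higher and blue lower. Red rows such as Chaf1a, E2f1, Pole and Pold1 run through all 6 conditioned medium libraries, the blue rows Rrm1 and Rrm2 do as well, and Pcna and Rfc4 are darkest blue in the third shControl-CM library.

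Entry into S phase is driven by E2F1, the founding E2F activator, and by the E cyclins. E2f1 stood at 82.2 and 102 CPM in control medium, 222, 225 and 223 CPM with shControl-CM, and 149, 170.5 and 220.1 CPM with shBrca2-CM. All 6 conditioned medium libraries lay above both controls. The log2 fold change was 1.27 ± 0.17 (adjusted p = 0.000446) with shControl-CM and 0.99 ± 0.16 (adjusted p = 8.33e-07) with shBrca2-CM. Between the conditioned media it was -0.28 ± 0.15, and although the 3 shBrca2-CM values lay below the 3 shControl-CM values under TMM scaling (not under total counts), it was not called (adjusted p = 0.482, 95% interval -0.57 to 0.023).

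Ccne1, which encodes cyclin E1, was the one gene of the group called between the conditioned media. It lies on chromosome 7 at 38097984 to 38107490 (GRCm38.p6). Ccne1 stood at 36.7 and 43.0 CPM in control medium, 72.4, 87.9 and 84.9 CPM with shControl-CM, and 50.6, 46.0 and 42.6 CPM with shBrca2-CM. The shControl-CM values lay above all 5 others, while those with shBrca2-CM reached from within the control range to just above it. The log2 fold change was 1.03 ± 0.19 (adjusted p = 0.00305) with shControl-CM against control medium, a 2.04-fold increase. With shBrca2-CM against control medium it was 0.21 ± 0.20 and was not called (adjusted p = 0.423). Directly compared, Ccne1 was 1.73-fold lower with shBrca2-CM than with shControl-CM (log2 fold change -0.79 ± 0.18, adjusted p = 0.0408). That last call was lost without any 1 of the shBrca2-CM libraries or without the second shControl-CM library, at log2 fold changes of -0.86 to -0.72 (adjusted p = 0.105 to 0.214). Ccne2, for cyclin E2, had 2 counts in each shBrca2-CM library, at 2.89, 2.49 and 1.78 CPM, next to 3.65 and 3.87 CPM in control medium and 3.20, 0 and 2.04 CPM with shControl-CM. No difference in Ccne2 was detectable at this depth, and no fold change is given.

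Genes of the clamp loader, polymerases and their partners rose more often than they fell. Of these 12, 7 rose and 1 fell with shControl-CM (median log2 fold change 0.54), and 6 rose and 2 fell with shBrca2-CM (median 0.46). In shares, 58.3% rose and 8.33% fell, then 50% and 16.7%, beside 18.2% and 18.9%, then 18.6% and 19.2%, of all genes. Pole, the catalytic subunit of polymerase epsilon on the leading strand, stood at 57.4 and 70.7 CPM in control medium, 125, 142 and 128 CPM with shControl-CM, and 133, 111 and 133 CPM with shBrca2-CM. Pold1, whose enzyme extends the lagging strand, stood at 134 and 148 CPM in control medium, 254, 261 and 236 CPM with shControl-CM, and 244, 236 and 318 CPM with shBrca2-CM. For both genes every conditioned medium library exceeded both controls and the conditioned media overlapped. The log2 fold change of Pole was 1.03 ± 0.18 (adjusted p = 0.00209) with shControl-CM and 0.98 ± 0.16 (adjusted p = 1.74e-06) with shBrca2-CM, and that of Pold1 was 0.83 ± 0.16 (adjusted p = 0.00331) and 0.93 ± 0.15 (adjusted p = 7.92e-07). From shControl-CM to shBrca2-CM they differed by -0.036 (95% interval -0.32 to 0.25) and 0.12 (-0.16 to 0.40).

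Rfc3, a subunit of the clamp loader, stood at 106 and 105 CPM in control medium, 189.6, 192 and 209.9 CPM with shControl-CM, and 158, 151 and 156 CPM with shBrca2-CM. The 3 groups did not overlap, with shBrca2-CM between control medium and shControl-CM. Its log2 fold change was 0.90 ± 0.15 (adjusted p = 0.00212) with shControl-CM and 0.56 ± 0.15 (adjusted p = 0.00236) with shBrca2-CM. Between the conditioned media it was -0.32 ± 0.13, with an unadjusted p of 0.0274 and an adjusted p of 0.288, and was not called. Rfc2, another loader subunit, rose with both media (log2 fold changes 0.70 ± 0.18 and 0.55 ± 0.15), as did Lig1, the ligase that seals lagging strand nicks (0.77 ± 0.17 and 0.52 ± 0.15). Prim1, the catalytic subunit of primase, stood at 50.4 and 44.9 CPM in control medium, 72.4, 70.5 and 65.2 CPM with shControl-CM, and 68.0, 85.9 and 73.7 CPM with shBrca2-CM. All conditioned medium libraries were above the controls, with log2 fold changes of 0.53 ± 0.18 (adjusted p = 0.0464) and 0.67 ± 0.18 (adjusted p = 0.0018). The call of Prim1 with shControl-CM was lost in 6 of 16 alternatives (adjusted p up to 0.432), among them libraries thinned to equal depth, at 0.32. Rpa2, a subunit of the single-strand binding protein, was called with shControl-CM at 0.54 ± 0.15 and had 0.30 ± 0.14 with shBrca2-CM. That call was likewise lost in 6 of 16 alternatives, with log2 fold changes down to 0.41.

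Pola1, the catalytic subunit of polymerase alpha and the partner of primase, went the other way. It stood at 63.6 and 61.3 CPM in control medium, 50.6, 32.9 and 17.7 CPM with shControl-CM, and 34.7, 44.8 and 37.3 CPM with shBrca2-CM. All 6 conditioned medium values were below both controls, but those with shControl-CM were spread 2.87-fold. The log2 fold change was -0.89 ± 0.33 (adjusted p = 0.0609) with shControl-CM and -0.68 ± 0.19 (adjusted p = 0.00367) with shBrca2-CM. With 1 library left out, the value with shControl-CM ranged from -1.35, without the first shControl-CM library, to -0.55, without the third, and 6 of 16 alternatives lost its call (adjusted p up to 0.283). Fen1, the nuclease that removes primer flaps, stood at 156 and 162 CPM in control medium, 119, 130.4 and 109 CPM with shControl-CM, and 109.9, 98.3 and 85.2 CPM with shBrca2-CM. Both conditioned media lay below the controls, and the call was made with shBrca2-CM (-0.71 ± 0.16, adjusted p = 0.00019) while shControl-CM missed the fold threshold (-0.43 ± 0.16, adjusted p = 0.0655). The difference between the conditioned media, -0.27, was not called (adjusted p = 0.53).

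Pcna, the sliding clamp and a standard S phase marker, was called in no comparison. It stood at 148 and 143 CPM in control medium, 205, 126 and 24.4 CPM with shControl-CM, and 123, 147 and 127 CPM with shBrca2-CM. The 3 shControl-CM values spanned 8.39-fold, on either side of all other libraries, where the median gene of the group spanned 1.28-fold in shControl-CM. Rfc4 spanned 5.85-fold in the same libraries, at 39.7, 17.4 and 6.79 CPM, and was likewise not called. Against control medium, the log2 fold change of Pcna was -0.30 ± 0.54 with shControl-CM and -0.14 ± 0.15 with shBrca2-CM. Without the first shControl-CM library both genes were called lower with shControl-CM, at -1.03 for Pcna (adjusted p = 0.0427) and -1.59 for Rfc4 (adjusted p = 0.00147). Without the third library, Pcna was at 0.20 and not called. Pcna also has pseudogene copies, and how reads matching several places were counted is not given in the sources used here.

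**Figure D2:**
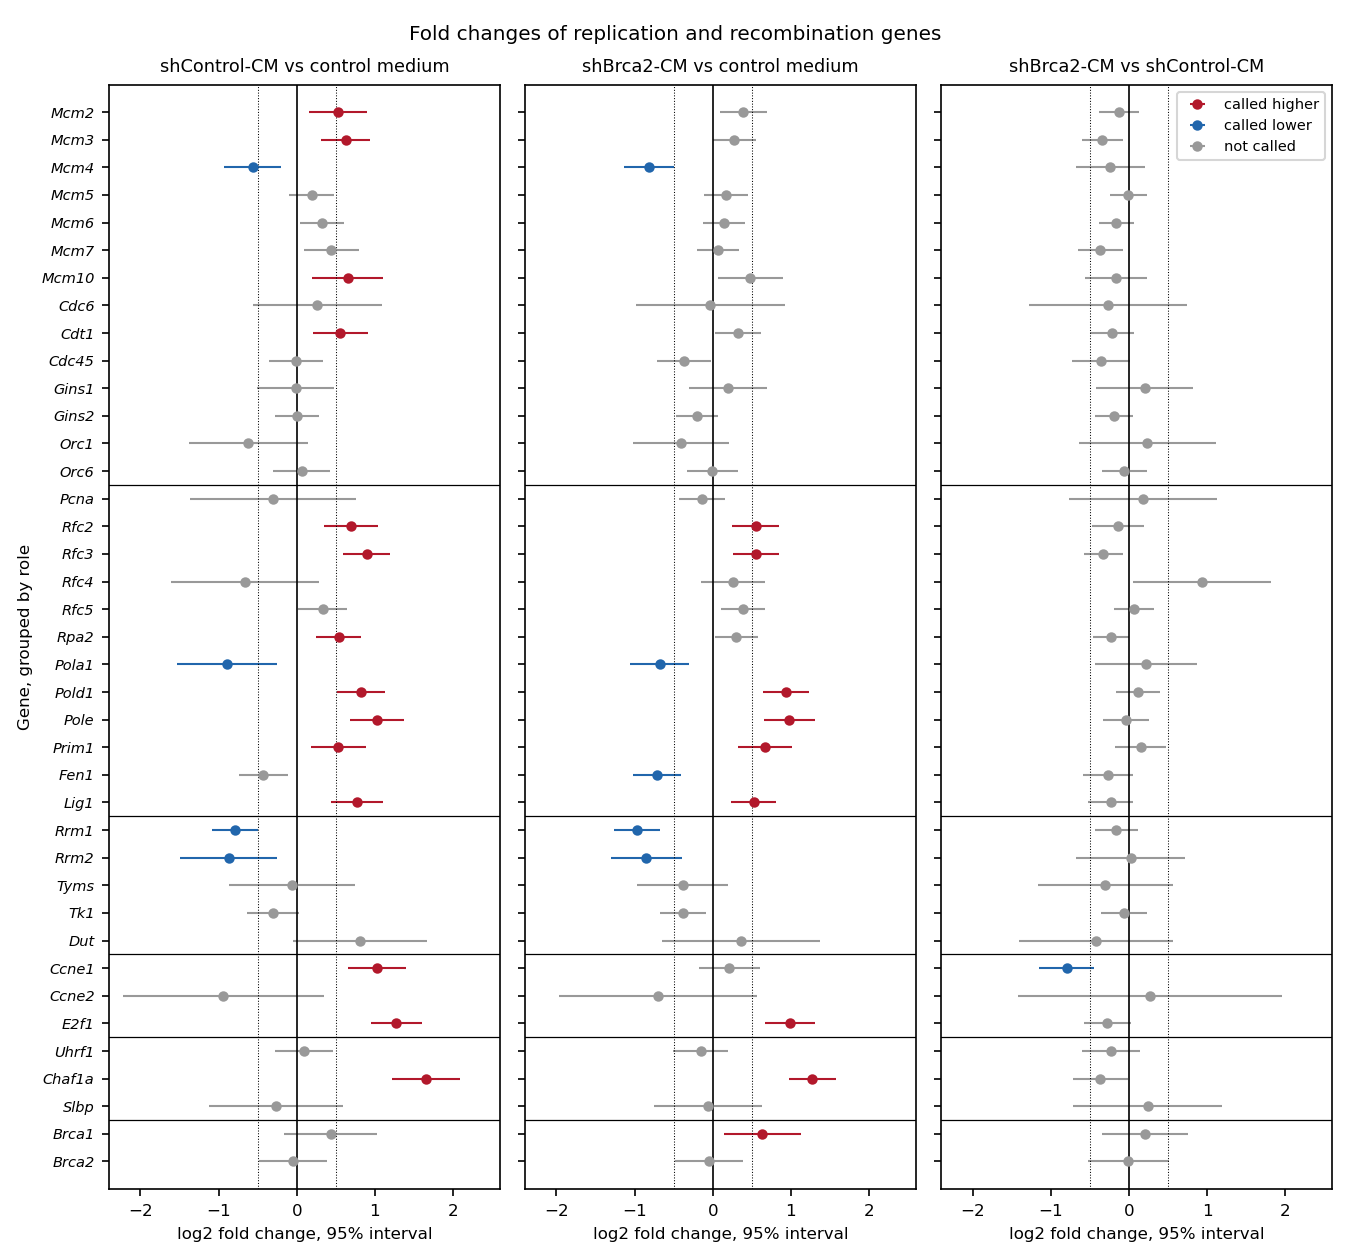
Log2 fold changes of the 39 genes (rows, grouped by role) in the 3 comparisons, with bars of the 95% interval, red and blue for genes called higher and lower, and dotted lines at the fold threshold of 0.5. The left and middle panels share the control libraries and hold 18 and 14 coloured genes, and the right panel, between the conditioned media, holds 1, Ccne1. The value of Ccne2 rests on 2 counts per library with shBrca2-CM.

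Of the 5 genes of nucleotide supply, 2 were called lower and none higher with either conditioned medium. Of all genes 18.9% and 19.2% were called lower, and 18.2% and 18.6% higher. The median log2 fold changes of the 5 were -0.30 with shControl-CM and -0.38 with shBrca2-CM, and a difference from the other roles was not tested. Rrm1 stood at 256 and 243 CPM in control medium, 148, 145 and 142 CPM with shControl-CM, and 139, 127 and 117 CPM with shBrca2-CM. The control values lay far above a narrow band of all 6 others. The log2 fold change was -0.79 ± 0.15 (adjusted p = 0.00316) with shControl-CM and -0.97 ± 0.15 (adjusted p = 2.75e-07) with shBrca2-CM. Rrm2, its partner subunit whose level peaks in S phase, stood at 39.5 and 41.5 CPM in control medium, 31.4, 11.6 and 21.7 CPM with shControl-CM, and 17.4, 21.2 and 26.6 CPM with shBrca2-CM. Again both controls were highest, with a wider spread below them. Rrm2 changed by -0.87 ± 0.32 (adjusted p = 0.0597) with shControl-CM and -0.85 ± 0.23 (adjusted p = 0.0023) with shBrca2-CM. The call of Rrm2 with shControl-CM was lost in 7 of 16 alternatives (adjusted p up to 0.350). Between the conditioned media the log2 fold change of Rrm2 was 0.023 (95% interval -0.67 to 0.72). Over the whole group, 1 of the 39 (2.56%) was called lower with shControl-CM without the second shControl-CM library, where 14.4% of all genes were.

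Tyms, which makes thymidylate and is another common S phase marker, stood at 16.7 and 19.3 CPM in control medium, 27.6, 6.76 and 15.6 CPM with shControl-CM, and 14.5, 12.4 and 14.2 CPM with shBrca2-CM. The shControl-CM libraries reached from the lowest to the highest of the 8, and no comparison was called (-0.061 and -0.38 against control medium, -0.30 between the conditioned media). Tk1, thymidine kinase, lay below both controls in all 6 conditioned medium libraries, at log2 fold changes of -0.30 ± 0.17 and -0.38 ± 0.15, too small to be called. Dut, which clears dUTP, was near the floor, at 3.73 to 9.51 CPM over all libraries, and was not called, with log2 fold changes of 0.81 ± 0.44 with shControl-CM and 0.36 ± 0.52 with shBrca2-CM.

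Licensing and firing genes differed by conditioned medium in what was called. Of the 14, 4 rose and 1 fell with shControl-CM, and none rose and 1 fell with shBrca2-CM, where 18.2% and 18.6% of all genes rose. The 4 were Mcm2, Mcm3, Mcm10 and Cdt1, at log2 fold changes of 0.53, 0.62, 0.65 and 0.56. With shBrca2-CM the same genes stood at 0.39, 0.27, 0.48 and 0.32, all positive and under the threshold. This contrast rested on single libraries: without the second control library Mcm2 (0.71) and Mcm10 (0.70) were called with shBrca2-CM as well, and without the first Mcm2 (0.29) was not called with shControl-CM. None of the 4 was called between the conditioned media, where 12 of the 14 licensing genes had negative log2 fold changes, all between -0.36 and -0.0059. Mcm3, a helicase subunit, stood at 299 and 334 CPM in control medium, 431, 486 and 556 CPM with shControl-CM, and 354, 367 and 421 CPM with shBrca2-CM. Under TMM scaling, though not under total counts, the conditioned media did not overlap, shBrca2-CM being lower, with an edgeR unadjusted p of 0.0259 and an adjusted p of 0.283. The call of Mcm2 with shControl-CM, like that of Cdt1, was lost when libraries were scaled by total counts.

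Mcm4, a subunit of the same helicase ring, fell with both conditioned media. It stood at 231 and 207 CPM in control medium, 181, 124 and 139.9 CPM with shControl-CM, and 86.8, 173 and 113 CPM with shBrca2-CM. All 6 conditioned medium libraries lay below both controls, and the conditioned media overlapped. Its log2 fold change was -0.56 ± 0.19 (adjusted p = 0.0411) with shControl-CM and -0.81 ± 0.16 (adjusted p = 5.14e-05) with shBrca2-CM, and under the correction for GC content described below that with shControl-CM was 0.086. The other ring subunits, Mcm5, Mcm6 and Mcm7, had 0.19, 0.32 and 0.44 with shControl-CM and 0.17, 0.15 and 0.065 with shBrca2-CM, and were not called. Cdc6, Cdc45, Gins1, Gins2, Orc1 and Orc6 were not called in any comparison, with log2 fold changes from -0.62 (Orc1, with shControl-CM) to 0.26 (Cdc6, with shControl-CM).

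Chaf1a had the largest log2 fold change of the 39 with either conditioned medium. It stood at 94.7 and 83.6 CPM in control medium, 214, 273 and 359.9 CPM with shControl-CM, and 233, 192 and 221 CPM with shBrca2-CM. Every conditioned medium library was above both controls and the conditioned media overlapped. The increase was 3.15-fold with shControl-CM (log2 fold change 1.65 ± 0.22, adjusted p = 0.000501) and 2.41-fold with shBrca2-CM (1.27 ± 0.15, adjusted p = 5.36e-10). Relative to shControl-CM, shBrca2-CM gave -0.37 ± 0.18, which was not called (adjusted p = 0.417). Uhrf1, which couples DNA methylation to replication, and Slbp, which binds histone mRNA, were not called (0.097 and -0.26 with shControl-CM, -0.15 and -0.062 with shBrca2-CM).

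**Figure D3:**
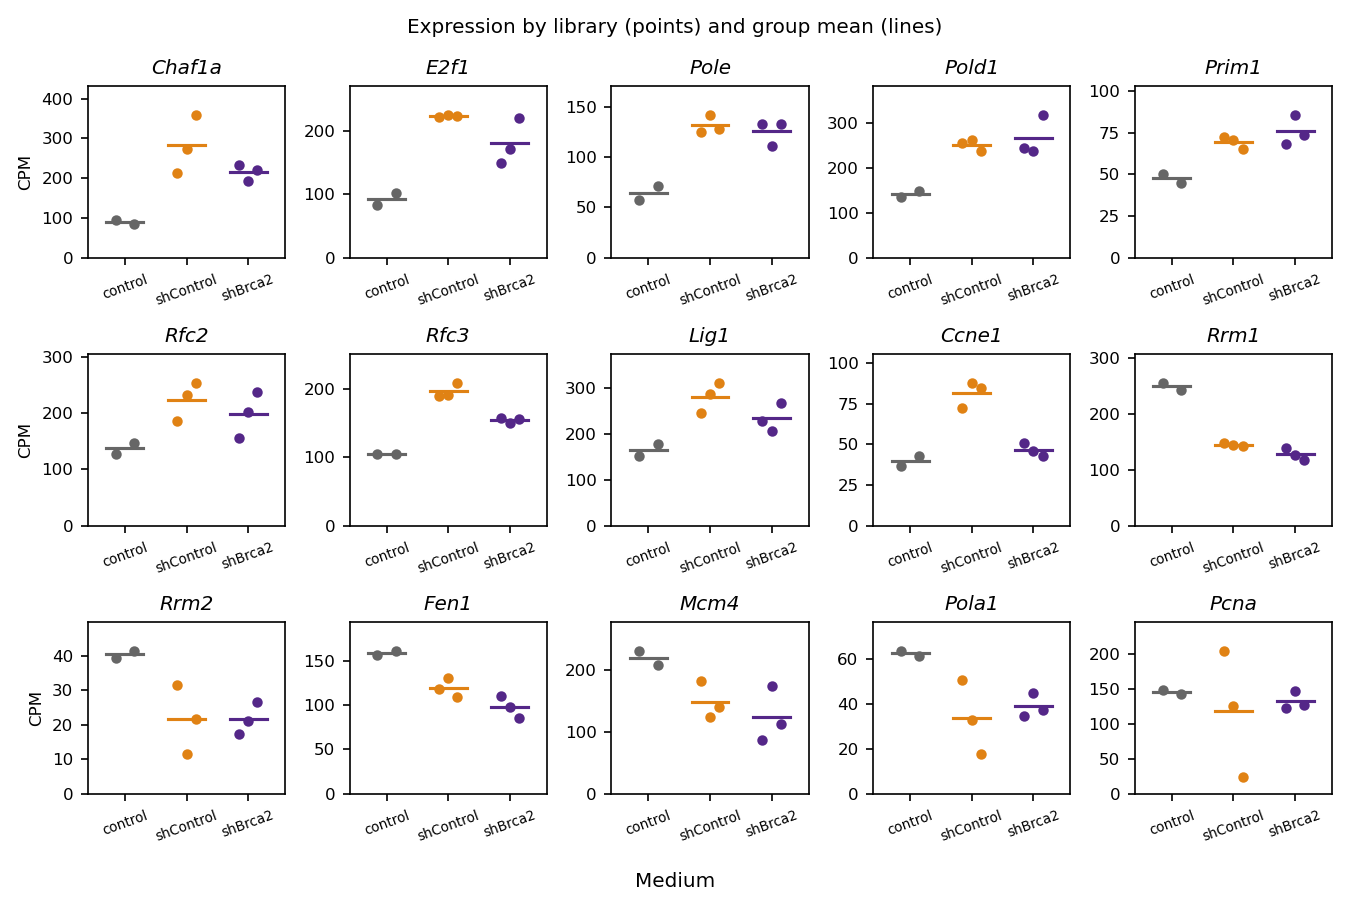
CPM of 15 genes in each library (points) with the group mean (horizontal lines) for control medium (n = 2), shControl-CM (n = 3) and shBrca2-CM (n = 3), on axes that start at 0. Chaf1a, E2f1, Pole, Pold1, Prim1, Rfc2, Rfc3 and Lig1 lie above the controls in all conditioned medium libraries, Rrm1, Rrm2, Fen1, Mcm4 and Pola1 below, Ccne1 above with shControl-CM alone, and Pcna is scattered within shControl-CM.

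The recombination genes of the group are Brca1, which helps to resect and pair broken ends, and Brca2, which acts with it in homologous recombination. Brca2 stood at 35.8 and 33.5 CPM in control medium, 36.5, 29.0 and 35.3 CPM with shControl-CM, and 31.8, 22.4 and 43.5 CPM with shBrca2-CM. The 3 groups overlapped, with log2 fold changes of -0.043 ± 0.22 and -0.048 ± 0.22 against control medium and -0.0043 ± 0.26 between the conditioned media (95% interval -0.52 to 0.52). Brca1 stood at 15.5 and 19.6 CPM in control medium, 28.2, 15.5 and 26.5 CPM with shControl-CM, and 26.0, 27.4 and 27.5 CPM with shBrca2-CM. The shBrca2-CM libraries lay above both controls, while the second shControl-CM library was as low as the controls. Brca1 was called with shBrca2-CM (0.64 ± 0.25, adjusted p = 0.0383) and not with shControl-CM (0.44 ± 0.30, adjusted p = 0.291), and the difference between the conditioned media was 0.21 (adjusted p = 0.814). DESeq2 did not call Brca1 with shBrca2-CM (adjusted p = 0.147 by its likelihood ratio test and 0.164 by its Wald test).

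Of the 39, 1 was called between the conditioned media, Ccne1, where 3.13% of 11035 genes tested were called, 1.58% higher and 1.55% lower. The median log2 fold change was -0.16, against 0.029 over all genes, with 27 negative and 12 positive values, the fitted value of Ccne2 included. With 1 library left out, this median of the 39 ranged from -0.19 to -0.080. Lower in every shBrca2-CM than in every shControl-CM library were 9 genes (Ccne1, Cdc45, Cdt1, E2f1, Mcm3, Mcm6, Rfc3, Rpa2 and Rrm1), where 10.6% of all genes were. Higher in every one were none of the 39, where 9.14% of all genes were, so that 19.8% of all genes did not overlap in either direction. Scaled by total counts, which moved the median over all genes to 0.14, 3 of the 39 stayed lower in every library (Ccne1, Rfc3 and Rpa2), where 6.14% of all genes were, and Prim1 was higher in every one, where 14.9% were. An unadjusted edgeR p under 0.05 was reached by 4 genes, Ccne1, Mcm3, Mcm7 and Rfc3, 10.3% of the 39, where 13.4% of all genes reached it. Without the first shControl-CM library 4 genes were called, with Chaf1a (-0.37 with all libraries, -0.56 without) and Mcm7 (-0.52) lower and Rfc4 (1.83) higher next to Ccne1, while 9.09% of all genes were called.

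Other genes of the same processes were taken from lists put together by function. Of 29 further replication genes, 5 rose and 4 fell with shControl-CM and 5 rose and 5 fell with shBrca2-CM, with medians of 0.069 and -0.070. Those shares, 17.2% and 13.8%, then 17.2% and 17.2%, lie at or below those of all genes (18.2% and 18.9%, then 18.6% and 19.2%). Mcmbp, which binds MCM subunits, rose by 2.42 ± 0.36 and 3.01 ± 0.37, and Hells, a chromatin remodeller, was called lower with both, at 10, 2 and 0 counts with shControl-CM and 6, 7 and 6 with shBrca2-CM against 112 and 80 in the deeper control libraries. Of 25 recombination and fork repair genes, 5 rose and 2 fell with each conditioned medium, 20% and 8%, so that the share that rose was close to that of all genes. Named by size, these were Palb2, which joins BRCA1 to BRCA2 (1.20), Xrcc3 (1.10) and Nbn (-1.02) with shControl-CM, and Rad51b (1.66), Mre11a (-1.43, at 3, 6 and 3 counts, near the floor) and Rad51ap1 (1.15) with shBrca2-CM. Rad51ap1 was also the one of 24 called between the conditioned media (0.74 ± 0.19, adjusted p = 0.083).

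Among 14 E2F and RB family regulators, 3 rose and 2 fell with shControl-CM (21.4% and 14.3%) and 3 rose and 4 fell with shBrca2-CM (21.4% and 28.6%), where 18.2% and 18.9%, then 18.6% and 19.2%, of all genes did. E2f2, an activator like E2f1, changed by 1.81 ± 0.27 and 1.15 ± 0.33. Rb1, the restraint on these activators, was called lower with both media but had 2, 1 and 3 counts with shBrca2-CM and 7, 1 and 2 with shControl-CM, against 38 and 30 in the deeper control libraries, and no fold change is given. Mybl2 (1.16 with shControl-CM) and Rbl1, an RB relative (-1.07 with shBrca2-CM), were the other regulators named by size. Against the same shares of all genes, of 21 mitosis genes, which peak after S phase, 6 rose and 2 fell with shControl-CM (28.6% and 9.52%), led by Ccnb1 (1.64), Cdk1 (1.22) and Tpx2 (1.11), while 3 rose and 5 fell with shBrca2-CM (14.3% and 23.8%), led by Tpx2 (1.35), Cdc20 (-1.23) and Kif20a (-1.06). Between the conditioned media 1 mitosis gene was called, Prc1 (-0.56 ± 0.15, adjusted p = 0.0995), or 4.76%, where 1.55% of all genes were called lower. The median of the mitosis genes there was -0.26, 7 of the 21 were lower in every shBrca2-CM library, where 10.6% of all genes were, and 33.3% had an edgeR unadjusted p under 0.05, where 13.4% of all genes did. The summed level of the mitosis genes was 2112 and 2133 CPM in control medium, 2253 to 2291 CPM with shControl-CM and 1670 to 2046 CPM with shBrca2-CM, and its part in the values above was not tested.

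**Figure D4:**
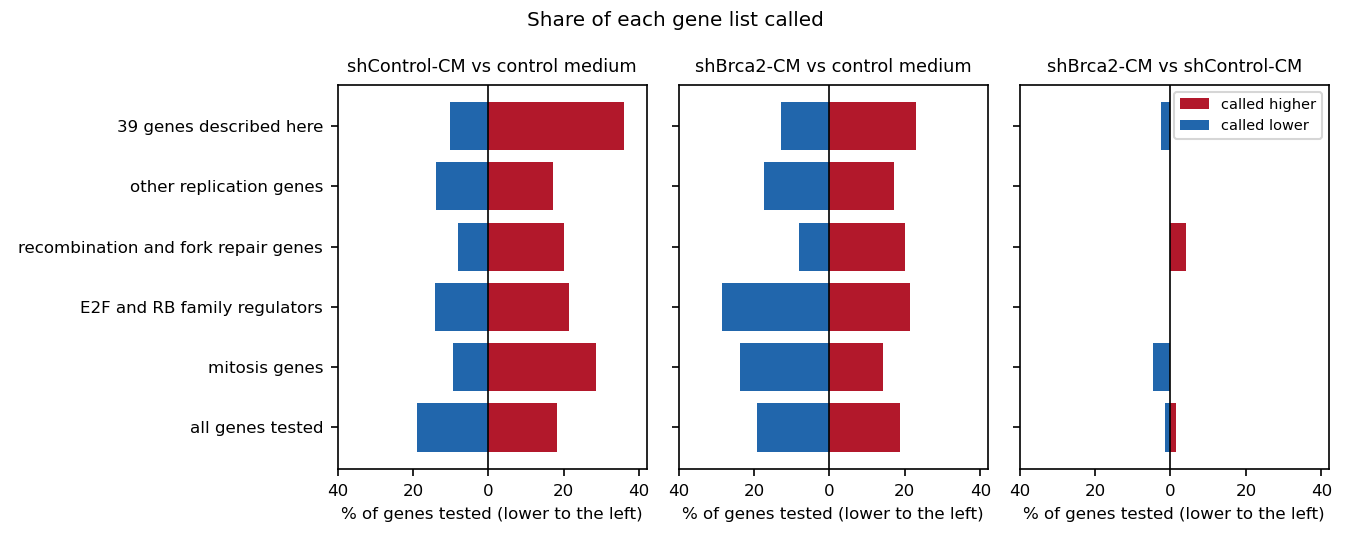
Percentage of the 39 genes, of 4 further lists and of all genes tested called higher (red, to the right) and lower (blue, to the left) in the 3 comparisons. Of the 39 genes 35.9% were called higher with shControl-CM (18.2% of all genes) and 23.1% with shBrca2-CM (18.6%), and between the conditioned media each of these 5 lists had at most 1 gene called.

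Base composition moved with these values. Across the 39 genes, the GC content of the last 500 bases of the transcript, the part that 3′ libraries sample, had a rank correlation with the log2 fold change of 0.49 with shControl-CM, 0.33 with shBrca2-CM and -0.41 between the conditioned media. Over all genes with a mean normalized count over 5 the same correlations were 0.29 (10540 genes), 0.24 (10244) and -0.15 (9223). The points share their libraries, and these correlations are descriptions only. With a correction for GC content in each library, chosen after the data were seen, 13 of the 39 were called higher and 2 lower with shControl-CM. With shBrca2-CM 9 were called higher and 4 lower. Of these calls, 12 with shControl-CM and 11 with shBrca2-CM were shared with the values above. In shares, 33.3% of the 39 were called higher and 5.13% lower, then 23.1% and 10.3%. Of all genes 18.3% and 17.9% were, then 18.5% and 17.3%. Rrm1 kept its calls (-0.92 and -1.05) and so did Chaf1a, E2f1 and Pole, and Pold1 kept them at 0.50, just past the threshold, and 0.66. Pola1 lost both calls (-0.48 and -0.40), Rrm2 (-0.36), Mcm2 (0.46), Cdt1 (0.49) and Rpa2 (0.41) lost that with shControl-CM, and Lig1 (0.36) that with shBrca2-CM. Calls were gained with shControl-CM by Brca1 (0.72), Dut (1.36) and Tk1 (-0.55), and with shBrca2-CM by Mcm10 (0.54) and Tk1 (-0.55). Mcm4 turned to 0.086 with shControl-CM (adjusted p = 0.749) and lost its call with shBrca2-CM (-0.42).

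**Figure D5:**
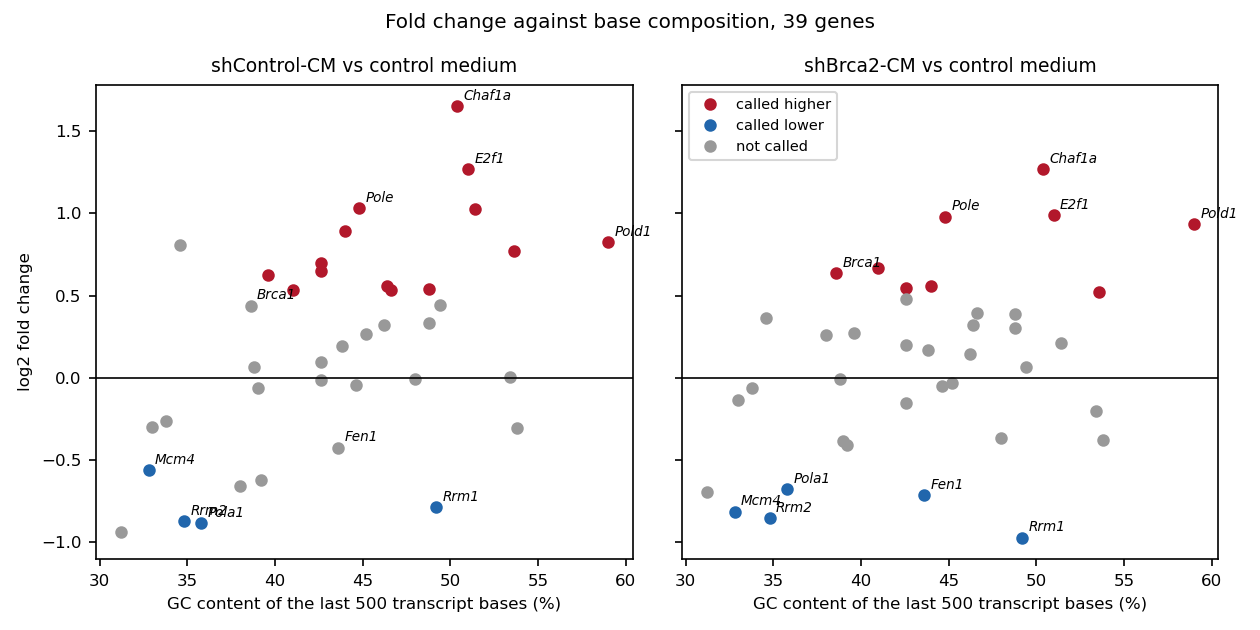
Log2 fold change against the GC content of the last 500 transcript bases (%) for the 39 genes, with shControl-CM (left) and shBrca2-CM (right) against the same control libraries, coloured by call. No gene called higher lies below 38.6%, Mcm4, Rrm2 and Pola1 lie at its left end, and Rrm1 is low at a GC content near that of Chaf1a.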

How the data were processed

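The table deposited by the authors holds unnormalized counts for 12160 genes in each library. The submitters' processing notes name bcl2fastq, cutadapt, STAR 2.4.2a, HTSeq, DESeq2 and build mm10. The treatment of molecular identifiers and the rule by which genes were kept are not given in the sources used here. Of its columns, 1, by its name a further DMEM library, matched no sample and was not used. Samples were grouped by their treatment label.

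Counts were analysed in R 4.3.3 with edgeR 4.0.16 (TMM, a minimum of 10 counts summed over the fitted libraries, quasi-likelihood test), each pair of groups alone, with adjustment over all genes tested. The study used DESeq2's likelihood ratio test, run here as an alternative with DESeq2 1.42.0. The test was checked on simulated data. The depth per library is given above. Intervals are 95% normal intervals and the floor covers counting error only. GC content was taken from GENCODE canonical transcripts and promoters from RefSeq.

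The members, gene lists and tests were chosen with earlier results of these data known. Genes named with full values were, per comparison, up to 6 higher and 6 lower called genes with the largest log2 fold change, and Pcna, Rrm2, Tyms, Ccne1, Ccne2, E2f1, Brca1 and Brca2, with at most 3 called genes per further list, of which 1 is not reported here. Mcm3, Mcm7 and Rfc4 were also described after their values were seen. Promoters were those of the 4 genes with the largest changes among those called with both conditioned media and whose window lies at the outermost start, a limit added after the windows were seen. Alternatives are given in the closing section.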

Additional observations from a re-analysis of the deposited data

How the results depend on the processing

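Depth limited Ccne2, Dut, Cdc6 and Slbp most. The number of the 39 genes called ranged over single left-out libraries from 0 to 4 between the conditioned media (1 with all libraries), 7 to 22 with shControl-CM (18 with all) and 11 to 17 with shBrca2-CM (14 with all). The lowest, 7, was without control medium replicate 1 and the highest, 22, without shControl-CM replicate 1, and the cause was not tested. Under stricter thresholds (adjusted p under 0.05, log2 fold change beyond 1) the counts were 0, 4 and 1. With shControl-CM 10.3% of the 39 were then called higher and 0% lower, where 9.0% and 10.6% of all genes were. With shBrca2-CM these shares were 2.56% and 0%, where 8.89% and 9.25% of all genes were. Between the conditioned media 1.18% of all genes were called. Under both DESeq2 tests, DESeq2's size factors, total counts, no filter on low counts, filterByExpr, all 3 groups in 1 fit, libraries thinned to 655996 counts and the GC correction, added after the data were seen, the counts stayed within 1.5 times those reported. The replicate numbers do not pair the samples, since deviations of same-numbered conditioned medium samples correlated at -0.030, -0.0069 and 0.12. With the replicate block 1, 17 and 11 genes were called, where 2.82%, 37.3% and 32.0% of all genes were. Under that block Pcna stood at 0.16 with shControl-CM against control medium.

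Every alternative kept the shControl-CM calls of Chaf1a, E2f1, Pole and Ccne1, 4 of 18, and the shBrca2-CM call of Chaf1a, 1 of 14. The adjusted p of Ccne1 between the conditioned media ranged from 0.0110 to 0.214 over 17 alternatives, 5 of which lost the call, and that of Brca1 with shBrca2-CM from 0.00838 to 0.281 over 16, of which 8 lost it. Of called values, Mcm4 with shControl-CM changed sign, to 0.086 under the GC correction. The others that changed sign were not called, 17 of 38 genes between the conditioned media, 11 of 21 with shControl-CM and 9 of 25 with shBrca2-CM. Of these, only Pcna, Rrm2, Tyms, Brca1, Brca2 and the MCM ring subunits are given here. Between the conditioned media, total counts gave 0.11 for Mcm5 and 0.11 for Brca2, filterByExpr 0.0058 and 0.0068, thinning 0.27 for Brca2, -0.045 for Rrm2 and -0.11 for Brca1, the joint fit of all groups -0.0023 and the GC correction -0.14 for Rrm2. With shControl-CM against control medium, thinning gave 0.076 for Tyms, and the GC correction 0.18 for Pcna and 0.18 for Tyms. With shBrca2-CM against control medium, thinning gave 0.15 for Brca2, and the GC correction -0.014 for Mcm7 and 0.25 for Pcna. Over left-out libraries the log2 fold changes between the conditioned media ranged from -0.0071 to 0.33 for Brca1, -0.29 to 0.20 for Brca2, -0.056 to 0.044 for Mcm5, -0.33 to 0.89 for Pcna, -0.26 to 0.37 for Rrm2 and -0.64 to 0.23 for Tyms. With shControl-CM against control medium they ranged from -0.10 to 0.042 for Brca2, -1.03 to 0.20 for Pcna and -0.61 to 0.26 for Tyms, and with shBrca2-CM from -0.37 to 0.16 for Brca2 and -0.055 to 0.20 for Mcm7. The cause of these changes was not tested.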
